A study of Drosophila melanogaster with 3 samples.

Results

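The peaks described here are ChIP-seq peaks that covered at least 1 listed gene from end to end. They were taken from the peak tables of anti-SMARCAD1 and anti-CBP chromatin immunoprecipitation, as every peak with at least 1 gene entry of the class that the annotation software gives to a gene lying wholly within a peak. There were 299 such peaks among 3211 for SMARCAD1 (9.31%, Wilson 95% interval 8.35% to 10.4%) and 233 among 3762 for CBP (6.19%, 5.47% to 7.01%). They contained 471 genes for SMARCAD1 and 363 for CBP. These were 636 gene names in all, of 6016 listed in either table, and 198 of the 636 were contained in a peak of both antibodies.

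The samples were S2 cells, an established Drosophila line of embryonic origin with features of blood cells. Every sample came from cells given dsRNA against EGFP, a control with no target in these cells, for 6 h at 26 °C without serum and then kept for 72 h more after medium with 10% serum had been added. Chromatin was digested with MNase, 1 library was made with each antibody, labelled SMARCAD1 (ASNA) ChIP and CBP ChIP, and input DNA, for which no table was used here, was the third sample. The comparison asks where the ATPase SMARCAD1 and the acetyltransferase CBP lie on the same genes.

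With 1 library per antibody and no replicates, no difference between the antibodies could be tested. The tables hold positions in bp and no counts or enrichments, so the depth is unknown. Intervals below cover counting error over peaks or genes, which share a library and, in clusters, a peak. No expression values were used, so the identity of the cells was not checked. Coordinates are printed as the tables give them. The methods name dm6, that is Release 6, but gene positions were mostly different from those that RefSeq gives for it. Of genes matched by name, the RefSeq start or end was found for 452 of 1089 on 2L and 158 of 1139 on 3L. It was found for none of 1185 on 2R, 1452 on 3R and 935 on X. Coordinates on 2R, 3R and X are therefore not those of Release 6. Peaks also lie on sequences named U and Uextra. Which assembly the tables follow instead was not settled.

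SMARCAD1 is a Snf2-family remodeler that uses ATP to act on nucleosomes, and CBP (nejire in flies) is a coactivator that acetylates histones at promoters and enhancers. A peak can only contain a gene shorter than itself, and the shortest genes of the fly genome are those of small RNAs. Genes for tRNAs, U6, 7SL, 7SK and RNase MRP RNA are transcribed by RNA polymerase III. The other spliceosomal snRNAs and most miRNAs are products of RNA polymerase II. Most fly snoRNAs, which guide the methylation and pseudouridylation of ribosomal RNA, are cut from introns of host genes. Many hosts code for ribosomal proteins, and others, the Uhg genes, have exons with no known protein product.

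Most of the contained genes were short. The contained genes had a median length of 549 bp for SMARCAD1 (95% interval 420 to 631 bp) and 420 bp for CBP (227 to 510 bp), beside 2563.5 bp and 2619 bp over all genes listed for the same antibody. Of the genes listed for SMARCAD1, 10.9% lay wholly in a SMARCAD1 peak, and of those listed for CBP, 7.67% lay wholly in a CBP peak. For SMARCAD1 the contained share was 76.4% of listed genes below 500 bp, 27.1% of those from 500 to under 1000 bp, 9.78% of those from 1000 to under 2000 bp and 1.02% of longer ones. For CBP the corresponding shares were 69.0%, 22.2%, 4.15% and 0.493%. The containing peaks were also wide, with a median of 3266 bp against 1685 bp for the other SMARCAD1 peaks and of 2698 bp against 1429 bp for the other CBP peaks. Lengths and widths are limited by the choice of peaks and are given as a description. The shares by length also depend on which genes are listed, namely those that a peak overlaps or whose TSS is the nearest.

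By RefSeq gene type, 361 of the 636 contained names were protein-coding genes, 109 were tRNA genes, 109 snoRNA genes, 18 miRNAs and 10 snRNA genes. Another 21 were other RNA genes and 6 pseudogenes, and 2 were not classified. The tRNA class includes tRNA pseudogenes, which are not among the 6. Genes that do not code for a protein were 44.5% of the contained genes for SMARCAD1 and 47.9% for CBP, against 1.72% and 1.82% of the other listed genes. Among genes from 500 to under 1000 bp the shares were 1.79% of the contained and 4.04% of the other genes for SMARCAD1, a difference of -2.25 percentage points (Newcombe 95% interval -5.42 to 2.55). For CBP that difference was -1.51 points (-3.79 to 2.90). Below 500 bp, in contrast, 86.8% of the contained and 44.9% of the other genes for SMARCAD1 did not code for a protein, and the difference was 41.9 points (29.1 to 53.6). For CBP it was 31.7 points (19.9 to 43.2). A gene is listed only where a peak overlaps it or its TSS is the nearest, so a very short gene is listed mostly by being contained. Of 121 listed tRNA names 109 were contained, and of 123 listed snoRNA names 109. The differences below 500 bp therefore depend on how genes are listed and are given as a description. The difference was also above 0 among longer genes, where fewer were contained. From 1000 to under 2000 bp it was 5.96 points for SMARCAD1 (2.12 to 12.7) and 7.40 for CBP (2.07 to 19.0), and from 2000 bp it was 7.41 (1.85 to 23.9) and 13.9 (3.58 to 39.5), the last 2 on 2 RNA genes or pseudogenes each.

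**Figure D1:**
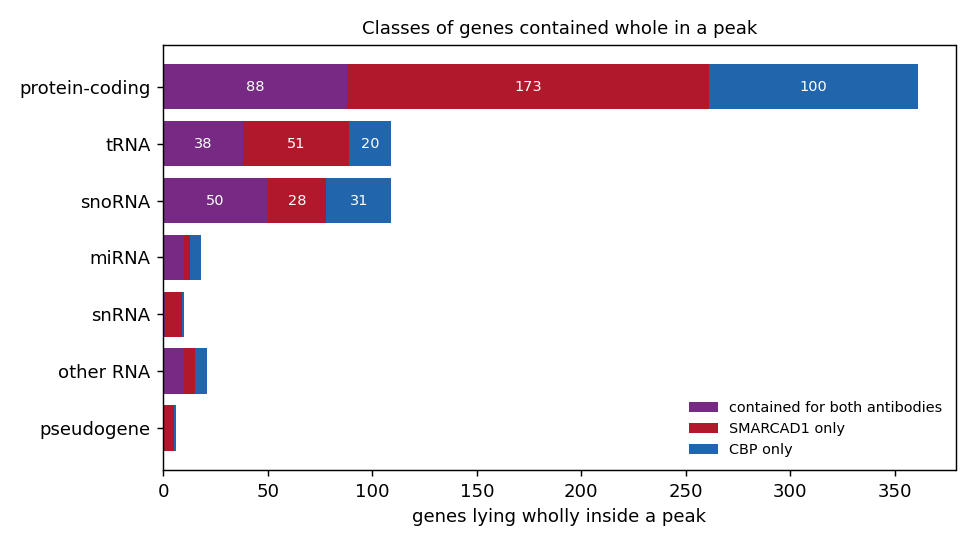
Number of genes (horizontal axis) of each class lying wholly inside a peak of both antibodies, of SMARCAD1 only or of CBP only. Protein-coding genes and tRNA genes had more names for SMARCAD1 only (173 and 51) than for CBP only (100 and 20), and snoRNA genes had 50 names in both.

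**Figure D2:**
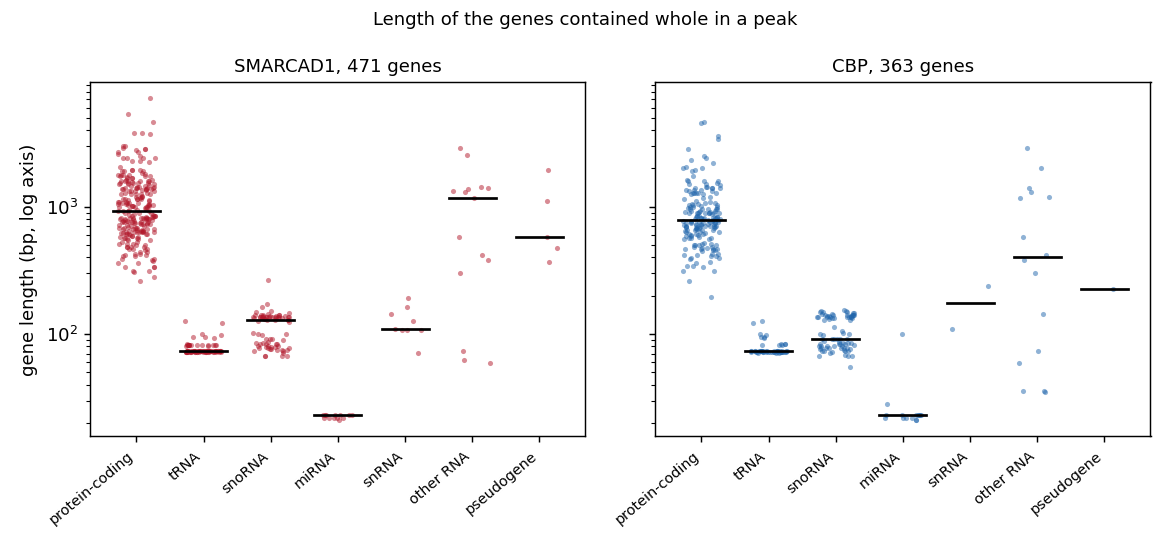
Length in bp (log axis) of every contained gene by class, SMARCAD1 on the left and CBP on the right, with the median as a black line and points spread sideways for legibility. The miRNA entries have a median of 23 bp, the tRNA genes have a median of 73 bp, and protein-coding genes reach 7081 bp for SMARCAD1 and 4598 bp for CBP.

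The tRNA genes were the largest group of genes transcribed by RNA polymerase III, and most of them lay in clusters under 1 peak. SMARCAD1 peaks contained 89 tRNA genes in 37 peaks and CBP peaks 58 in 27 peaks, with 38 genes in both. Entries that RefSeq types as tRNA pseudogenes are included in the counts of tRNA genes. In SMARCAD1, 23 peaks held at least 2 tRNA genes and 75 of the 89 genes lay in them. In CBP, 17 peaks held 48 of the 58. RefSeq gave a systematic name to 108 of the 109 entries, and these covered 37 of the 44 anticodons and 19 of the 20 amino acids of its 290 nuclear tRNA genes. Only aspartate had no contained gene.

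The tRNA peak with the most genes for both antibodies was the isoleucine and leucine cluster on 2R. The SMARCAD1 peak (chr2R:9317397-9321641, 4245 bp) contained 5 genes for tRNA-Ile-AAT, 2 for tRNA-Leu-CAA and the protein-coding gene CG30065. The CBP peak (chr2R:9317521-9320580, 3060 bp) contained the same 7 tRNA genes without CG30065. Of the 9 tRNA-Ile-AAT genes in RefSeq, 7 were contained for either antibody and 6 for both. A cluster on 3L was also held by both antibodies, in peaks of 2870 bp and 2467 bp that each contained 6 tRNA genes. It included the 4 contained genes for tRNA-Cys-GCA, within the chitinase gene Cht7.

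Other tRNA clusters lay under a peak of 1 antibody alone. A SMARCAD1 peak of 5473 bp on 2R contained 4 tRNA-His-GTG genes and a tRNA-His pseudogene, and the nearest CBP peak was 4796 bp from the pseudogene. A SMARCAD1 peak of 2601 bp on 3R contained 5 of the 10 tRNA-Arg-ACG genes of RefSeq with a tRNA-Asn gene, and every gene in it was more than 11 kb from a CBP peak (11214 bp for tRNA:N5:84F). The 3 contained tRNA-Trp genes and the 3 tRNA-Gly-GCC genes, in contrast, lay in CBP peaks only.

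None of the 51 tRNA genes contained for SMARCAD1 only was touched by a CBP peak. With a median length of 73 bp, a tRNA gene is mostly contained where a peak touches it. Of 121 listed tRNA names, CBP contained 58 and did not touch 63, and SMARCAD1 contained 89 and did not touch 31. That no such gene was touched is thus largely set by the choice and is a description. The distance of these 51 genes to the nearest CBP peak ranged from 318 to 32218 bp with a median of 7349 bp. Of the 51, 14 were within 2000 bp of one. The 20 tRNA genes contained for CBP only were 3140 to 56581 bp from a SMARCAD1 peak. Of the peaks with a tRNA gene, 20 of 37 for SMARCAD1 (54.1%, Wilson 95% interval 38.4% to 69.0%) were overlapped by a CBP peak, and 58.9% of all SMARCAD1 peaks were. For CBP it was 16 of 27 (59.3%, 40.7% to 75.5%), and 52.7% of all CBP peaks were overlapped by a SMARCAD1 peak. Both shares were near those over all peaks, which are of unlike width. Peaks with a tRNA gene had a median width of 2673 bp for SMARCAD1 and 2467 bp for CBP, against 1685 and 1429 bp for peaks without a contained gene. In the widest quartile of all peaks the overlapped share was 79.5% for SMARCAD1 and 56.1% for CBP. A comparison at equal width was not run for tRNA peaks. Of the peaks with a tRNA gene, 22 of 37 for SMARCAD1 and 15 of 27 for CBP were at the start of no protein-coding gene. Of the peaks without a contained gene, 47.7% for SMARCAD1 and 57.1% for CBP covered the start of a gene of any class. Genes for the same tRNA are near-identical copies. The methods map reads with BWA at its default aln and samse settings, and say nothing further on reads that match several places.

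The other polymerase III genes split in another way. The 7SL gene, for the RNA of the signal recognition particle, was contained for both antibodies, in a SMARCAD1 peak of 5569 bp with 4 tRNA-Lys genes and a tRNA pseudogene, and in a CBP peak of 1075 bp with 1 of the tRNA-Lys genes. The gene for RNase MRP RNA, which takes part in ribosomal RNA processing, lay in peaks of 1827 bp for SMARCAD1 and 1465 bp for CBP. The entry snmRNA:331, which RefSeq names a 7SK RNA, the RNA that holds the elongation factor P-TEFb in an inactive complex, lay in peaks of 4447 bp and 3095 bp. The U6 genes, for the catalytic RNA of the spliceosome, were contained only for SMARCAD1. Its 4544 bp peak on 3R held 3 U6 genes in a row, which were 5811, 6415 and 6938 bp from the nearest CBP peak.

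The contained snRNA genes of RNA polymerase II were also mostly in SMARCAD1 peaks. A SMARCAD1 peak contained snRNA:U1:95Ca (peak of 3007 bp), snRNA:U2:34ABa (2192 bp), snRNA:U4:39B (2212 bp), snRNA:U5:35D (1815 bp) and U7 (1437 bp), the last being the RNA that directs histone mRNA 3' end processing. The nearest CBP peak was 7708 bp from snRNA:U1:95Ca, 3499 bp from snRNA:U2:34ABa, 3102 bp from snRNA:U4:39B, 4028 bp from snRNA:U5:35D and 36145 bp from U7. The gene of U12, an RNA of the minor spliceosome, showed the opposite arrangement, with snRNA:U12:73B inside a 2041 bp CBP peak and 4912 bp from a SMARCAD1 peak. With snmRNA:331, SMARCAD1 thus had 9 snRNA genes in 7 peaks, of which 1 peak was overlapped by CBP (14.3%, Wilson 95% interval 2.57% to 51.3%), beside the 58.9% of all SMARCAD1 peaks. The count rests on 7 peaks and snRNA genes too have near-identical copies elsewhere in the genome.

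Of the snoRNA genes, 78 were contained for SMARCAD1 and 81 for CBP. The 50 in both were 64.1% of the former (53.0% to 73.9%) and 61.7% of the latter (50.8% to 71.6%). These genes lay in 23 SMARCAD1 and 33 CBP peaks, so the intervals, which count each gene separately, are likely too narrow. Of the 109 names, 103 lay within a listed host gene on the same strand, and there were 35 hosts. Peaks with a snoRNA gene were overlapped by the other antibody in 19 of 23 cases for SMARCAD1 (82.6%, 62.9% to 93.0%) and in 17 of 33 for CBP (51.5%, 35.2% to 67.5%), beside the 58.9% and 52.7% of all peaks. They were wide, with medians of 2872 and 2485 bp, and in the widest quartile of all peaks 79.5% and 56.1% were overlapped. The part of width was not tested.

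The peaks with the most contained genes were those over Uhg5, a host gene on 2R with 11 intronic snoRNAs. The SMARCAD1 peak (chr2R:10506531-10512681, 6151 bp) contained 13 genes, namely Uhg5, its 11 snoRNAs and CG12863. The CBP peak (chr2R:10505121-10512479, 7359 bp) contained 14, as it also covered the whole of Sec61beta, a subunit of the translocon of the endoplasmic reticulum. The remaining Uhg genes were each contained for 1 antibody. Uhg3 (peak of 2872 bp) and Uhg8 (2421 bp) were in SMARCAD1 peaks, at 557 and 18125 bp from a CBP peak. Uhg2 (4194 bp) and Uhg4 (3170 bp) were in CBP peaks, at 1938 and 1546 bp from a SMARCAD1 peak.

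The gene Arc-p34, for an Arp2/3 complex subunit, held the longest snoRNA array, with 17 contained members of the Psi18S-525 and Psi18S-640 families. A SMARCAD1 peak (chr2L:20416474-20420240, 3767 bp) contained 11 of them and a second one of 3484 bp the other 6. The CBP peak of 3115 bp contained 7, cut the next of them, and left the last 6 at least 1618 bp away (snoRNA:Psi18S-640e). At Nop60B, the pseudouridine synthase of box H/ACA snoRNPs, peaks of 2116 bp for SMARCAD1 and 2145 bp for CBP contained the same 8 entries, of which 4 are double listings of 2 RefSeq genes. At RpL28 the peaks of 6677 and 6408 bp contained the gene, 5 snoRNAs and CG17737. At RpS7 peaks of 7079 and 2854 bp contained 7 snoRNAs.

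The hosts differed in how their own start was covered. The start of 28 of the 35 snoRNA hosts lay in a CBP peak (22 with the start covered and 6 contained whole) and that of 16 in a SMARCAD1 peak (12 and 4). Of all listed names 59.9% had their start in a CBP peak and 45.9% in a SMARCAD1 peak. The hosts were chosen by a snoRNA gene in a peak of either antibody, and these genes lay in 33 CBP peaks and 23 SMARCAD1 peaks. A host touched by 1 antibody only is listed through that antibody. The counts of hosts are thus partly set by the choice and are a description. At RpS7, Nop60B, pAbp and RpS9 the start was covered by CBP, while SMARCAD1 covered the end of the gene without its start. RpS29, contained for CBP, had its end alone covered by SMARCAD1. SMARCAD1 did not touch 11 hosts, among them RpL10Ab and RpL30, and CBP did not touch 2, Uhg3 and Uhg8.

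**Figure D3:**
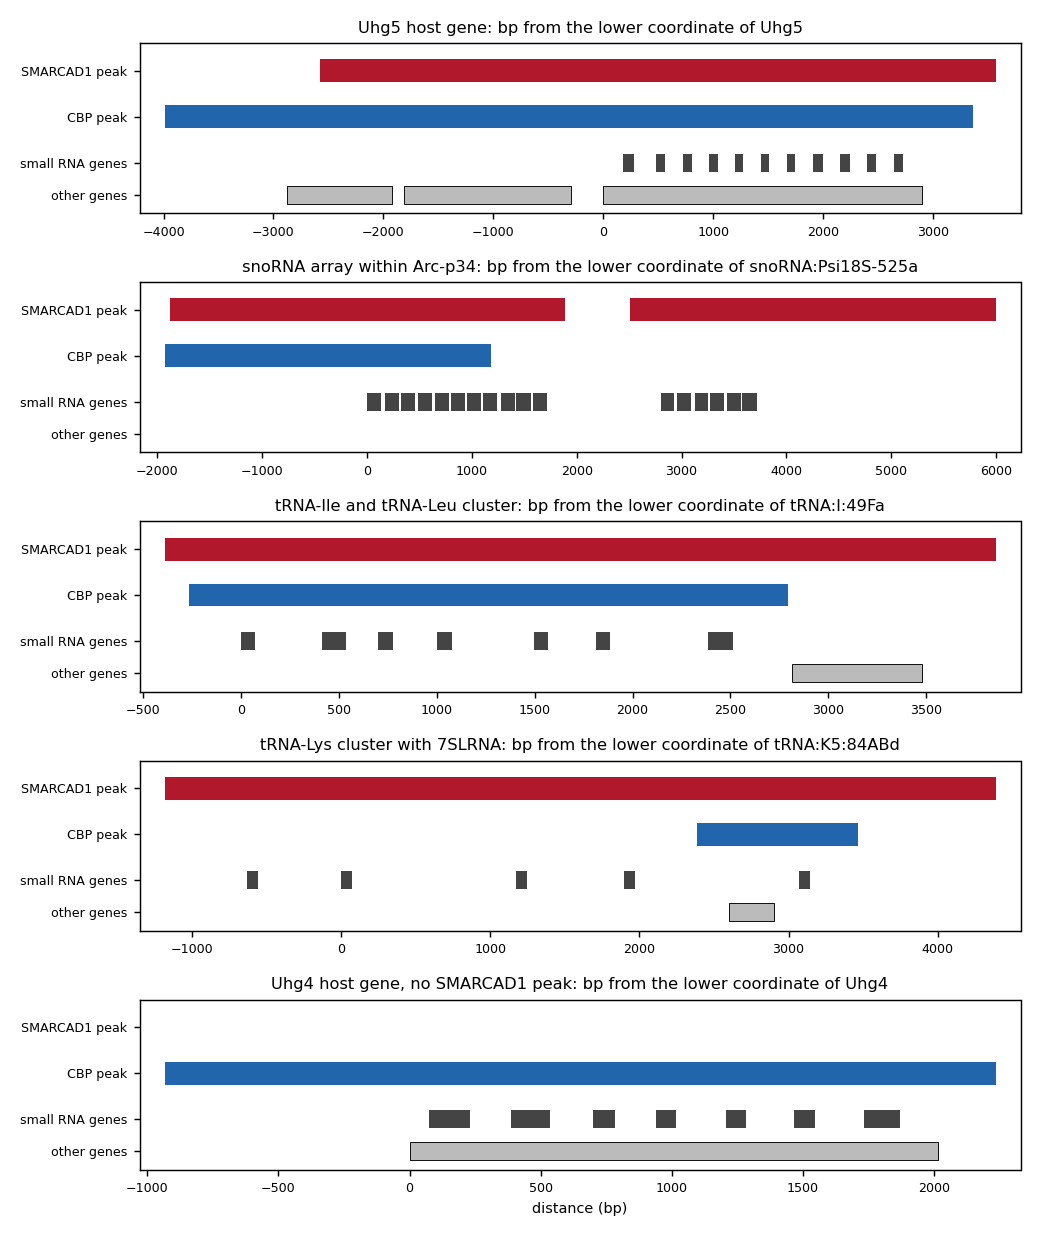
Maps of 5 loci to scale, with the distance in bp from the lower coordinate of the gene named in each title on the horizontal axis, containing peaks of SMARCAD1 (red) and CBP (blue), contained small RNA genes (dark) and other contained genes (grey). The antibodies cover Uhg5 and the tRNA-Ile cluster together, CBP stops within the snoRNA array of Arc-p34 and covers 2 of the 6 genes of the tRNA-Lys cluster, and Uhg4 lies under CBP alone.

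Entries for miRNAs were contained 13 times for SMARCAD1 and 15 times for CBP, with 10 in both. The entries, most of the length of a mature miRNA and 1 of 100 bp (mir-34), do not show the promoters of the primary transcripts. mir-14, an inhibitor of cell death in flies, lay in peaks of 6213 bp for SMARCAD1 and 6019 bp for CBP. mir-275 and mir-305 shared peaks of 5742 and 5178 bp, and mir-279 lay in peaks of 3724 and 3497 bp. The mir-281 arms, listed as 4 entries for 2 RefSeq genes, shared peaks of 3045 bp for SMARCAD1 and 7852 bp for CBP with SmD3, a core protein of the snRNPs. Others lay on 1 side. mir-277 and mir-34 were in a CBP peak of 11213 bp, more than 62 kb from a SMARCAD1 peak (62641 bp for mir-34), and mir-8 was in one of 2073 bp. mir-2a-1 and mir-2a-2, within the gene of the EGF ligand spitz, were contained for SMARCAD1 only, at 185 and 591 bp from a CBP peak that contained their neighbour mir-2b-2.

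The contained protein-coding genes numbered 261 for SMARCAD1 and 188 for CBP, and the 88 in both were 33.7% (28.3% to 39.7%) and 46.8% (39.8% to 53.9%) of these. When the other antibody was asked only to cover the start, 170 of the 261 SMARCAD1 genes (65.1%) had their start in a CBP peak. The share was 70.7% for protein-coding genes that had the start but not the whole gene in a SMARCAD1 peak, a difference of -5.61 points (Newcombe 95% interval -11.9 to 0.232). For CBP the shares were 52.1% and 52.3%, a difference of -0.137 points (-7.46 to 7.10). Over genes of all classes with their start in a SMARCAD1 peak, 68.8% also had it in a CBP peak, and 52.7% in the opposite direction. The genes contained for 1 antibody only were then sorted by what the other antibody covered. Of the 173 coding genes contained for SMARCAD1 only, 82 had their start covered by CBP, 78 were not touched and 13 were touched in another way. Of the 100 contained for CBP only, 10 had their start covered by SMARCAD1 and 86 were not touched. Of all listed names, 53.9% had the start without the whole gene in a CBP peak and 38.1% in a SMARCAD1 peak. No share of untouched genes over all listed names is given here. Genes contained for both were left out of these counts. Where peaks overlapped one to one without a contained gene, SMARCAD1 had the wider peak in 85.8% of 1512 pairs. The part of peak width in these counts was not tested, and they are a description.

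Genes contained for both antibodies included reaper (rpr), an activator of apoptosis, in peaks of 9031 bp for SMARCAD1 and 8264 bp for CBP, the largest widths of the genes named in this paragraph. The metallothionein gene MtnA lay in peaks of 2304 and 2031 bp. The replication-independent histone H4 gene His4r lay in peaks of 2861 and 2668 bp, in the CBP case with a margin of 46 bp. Other examples were SmD3, LSm1 (1801 and 1448 bp), which takes part in mRNA decay, snRNP69D (5669 and 4017 bp), hoip (3408 and 3145 bp), a protein of snoRNPs and the U4 snRNP, and Srp9 of the signal recognition particle (4662 and 2035 bp).

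Ribosomal protein genes were contained for 10 of 70 listed names that begin with RpL or RpS, 4 for SMARCAD1 and 9 for CBP. Of all 6016 names listed for either antibody, 10.6% were contained for either, 7.83% for SMARCAD1 and 6.03% for CBP. These shares include small RNA genes, which were listed mostly by being contained. Of the 5600 listed protein-coding names, 361 were contained for either antibody, 261 for SMARCAD1 and 188 for CBP. RpL21, RpL28 and RpL39 were in both, RpL29 in SMARCAD1 only, and RpL30, RpL38, RpLP1, RpS13, RpS28a and RpS29 in CBP only. Of the 70, 54 had the start without the whole gene in a CBP peak and 27 in a SMARCAD1 peak, beside 53.9% and 38.1% of all listed names. Mitochondrial ribosomal protein genes were contained for 8 of 45 listed names, 5 for each antibody, and mRpL17 and mRpL55 for both. They stand beside the same 10.6%, 7.83% and 6.03% of all listed names and the same counts of protein-coding names. mRpL34, at 345 bp, was inside its 1325 bp CBP peak by 5 bp.

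The antifungal Drosomycin relatives dro2, dro3, dro4 and dro5 lay together in a SMARCAD1 peak of 5475 bp, and the nearest CBP peak was 1616 bp from dro5. The 361 bp gene of drosocin (Dro), an antibacterial peptide, lay in a 1045 bp SMARCAD1 peak with a margin of 26 bp, while a CBP peak of 906 bp missed containing it by 45 bp. The cecropin genes CecA1 and CecB, the pseudogene Cec-Psi1 and Anp, which codes for andropin, were in CBP peaks only, at 1765 to 5151 bp from a SMARCAD1 peak. CecB was inside its CBP peak by 26 bp. pirk, an inhibitor of Imd signalling, was in a 6030 bp CBP peak. GstE6, GstE7, GstE8 and GstE9, glutathione transferases, were in a 5991 bp SMARCAD1 peak. Of these CBP contained GstE6 alone, in 2030 bp, and it covered the start of GstE7 and GstE9 and the end of GstE8.

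Hsp23, a small heat shock protein, was in a 5120 bp CBP peak and 3505 bp from a SMARCAD1 peak. It was the only contained gene of 20 listed names that begin with Hsp or Hsc. For CBP 6.03% of all listed names were contained, and 188 of the 5600 protein-coding names. CBP covered the start of the other 19 and SMARCAD1 that of 11 of the 20, beside 53.9% and 38.1% of all listed names. DnaJ-1 (CBP peak of 6122 bp), Hop (4934 bp), both cochaperones, and Thor (3427 bp), the 4E-binding protein that restrains translation, had their start covered by SMARCAD1. The gene of SUMO, smt3 (3716 bp), and awd (4024 bp), a nucleoside diphosphate kinase, were not touched by SMARCAD1, at 3572 and 58880 bp. Among genes of the transcription machinery, TfIIA-S (6931 bp), RpII15 (3022 bp), Rpb11 (2309 bp), MED21 (2500 bp) and CG34186, which RefSeq names Polr2K (3518 bp), were in SMARCAD1 peaks, with RpII15 alone having its start in a CBP peak. MED10 (3141 bp) and Taf10b (1436 bp) were in CBP peaks.

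The longest contained genes were different for the antibodies. Pect, an enzyme of phosphatidylethanolamine synthesis of 7081 bp, was inside a SMARCAD1 peak of 8322 bp, CG4004 of 5320 bp inside one of 11116 bp, and the autophagy gene Atg7 of 4593 bp inside one of 5743 bp. CBP covered the start of Pect and CG4004 and lay 7051 bp from Atg7. In CBP the longest were Wwox with 4598 bp in a peak of 8398 bp, the GTPase gene Rho1 with 4544 bp in 7692 bp, and Paip2 with 3578 bp in 6176 bp. None of these 3 was touched by SMARCAD1, and Rho1 was 2519 bp from a SMARCAD1 peak.

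A few assignments rested on some bp. For SMARCAD1 7 entries were contained with a margin under 100 bp and 14 not contained missed by up to 100 bp, for CBP 17 and 15. The smallest margins were 8 bp for CG13445 and 20 bp for l(2)37Cg in SMARCAD1, and 3 bp for CG30095 in CBP. Just outside were mir-308, missed by 7 bp, and CG13565, by 14 bp, in SMARCAD1, and cl by 1 bp, CG14898 by 3 bp and l(2)37Cg by 3 bp in CBP. The last, 20 bp inside its SMARCAD1 peak, thus counts for SMARCAD1 only although its start lay in a CBP peak.

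Where a protein-coding gene was the only contained gene, the peak reached further upstream than downstream in most cases. For SMARCAD1 the peak reached a median of 879 bp upstream (789 to 1031 bp) and 724 bp downstream (657 to 830 bp) of 183 genes. It extended further upstream than downstream in 59.6% (Wilson 95% interval 52.3% to 66.4%). For CBP the medians were 832 and 666 bp over 130 genes, and the share was 66.2% (57.7% to 73.7%). The centre of the peak lay within the gene for 62.8% and 63.8% of these genes, upstream of the TSS for 21.9% and 23.1% and beyond the end for 15.3% and 13.1%. The peak also covered the start of another gene for 80.9% and 84.6% of them. Where it did not, the medians were 876 and 688 bp over 35 SMARCAD1 genes. Over 20 CBP genes they were 919.5 bp (607 to 1598 bp) upstream and 820.5 bp (413 to 1324 bp) downstream.

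**Figure D4:**
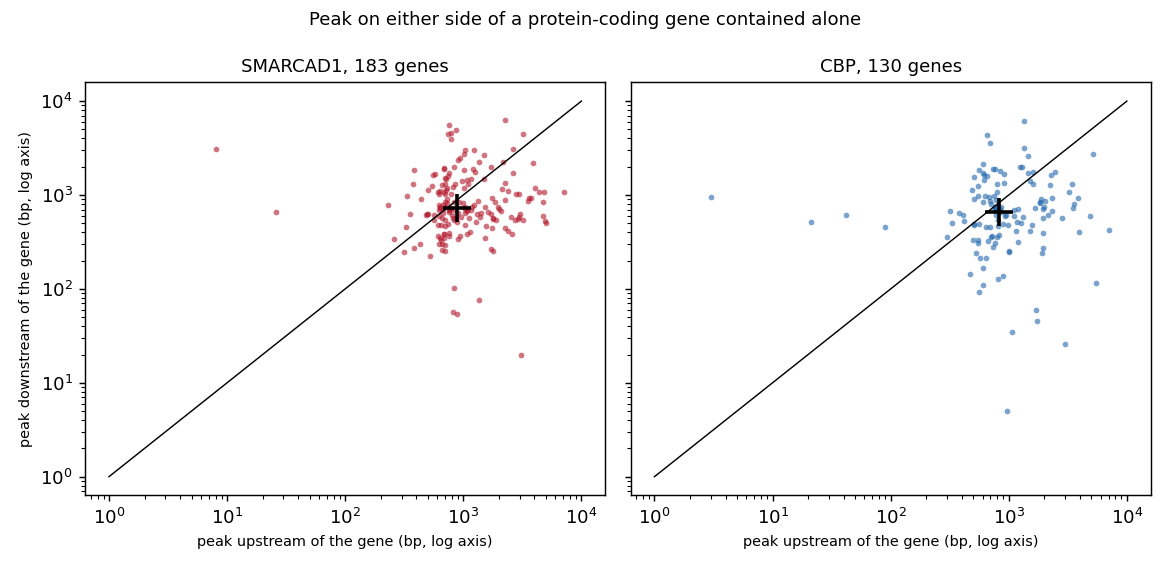
Length of peak upstream (horizontal) and downstream (vertical) of each protein-coding gene that is the only contained gene of its peak, both in bp on log axes, for 183 SMARCAD1 and 130 CBP genes, with equality as a line and the medians as a cross. Points crowd on either side of the line with the median below it, at 879 bp upstream and 724 bp downstream for SMARCAD1 and at 832 bp upstream and 666 bp downstream for CBP.

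The contained gene was seldom the only gene under the peak. Another gene's start was covered by 70.9% of the containing SMARCAD1 peaks and 74.7% of the containing CBP peaks, while 47.7% and 57.1% of the other peaks covered any start. Another gene's end was covered by 57.2% and 49.4%, against 31.4% and 20.9% of the other peaks. The containing peaks were also wider, and the part of width in these shares was not tested. Peaks inside a longer gene made up 7.36% and 9.44%, and 16 peaks of each antibody touched no gene but the contained. The nearest TSS was that of a contained gene in 55.5% and 55.8%, so a table of the nearest TSS alone would leave many of these genes out. By number, 228 SMARCAD1 peaks contained 1 gene, 35 contained 2 and 36 contained 3 or more, and for CBP these were 170, 42 and 21.

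A CBP peak overlapped 214 of the 299 containing SMARCAD1 peaks (71.6%), against 57.6% of the other SMARCAD1 peaks, a difference of 14.0 points (Newcombe 95% interval 8.37 to 19.2). Within the widest quartile of SMARCAD1 peaks, which held 172 of the 299, the shares were 79.7% and 79.4%, a difference of 0.253 points (-7.02 to 6.54), and in the third quartile the difference was -2.64 points (-13.4 to 7.47). The background over all peaks of the widest quartile was 79.5%. Among CBP peaks 132 of 233 were overlapped (56.7%), 4.23 points above the other peaks (-2.40 to 10.6), and within the widest quartile, with a background of 56.1%, the difference was 2.81 points (-6.28 to 11.5).

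When merged, the containing peaks formed 412 loci, of which 120 had a containing peak of both antibodies, 179 of SMARCAD1 only and 113 of CBP only. The 120 are 40.1% of the SMARCAD1 and 51.5% of the CBP peaks described. At 106 of them the SMARCAD1 peak was the wider, by a median of 382.5 bp over the 120 (278 to 564 bp). This share of 88.3% (81.4% to 92.9%) was near that of the pairs that overlap one to one without a contained gene, 85.8% of 1512. The centres were within 200 bp of each other at 67 loci.

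**Figure D5:**
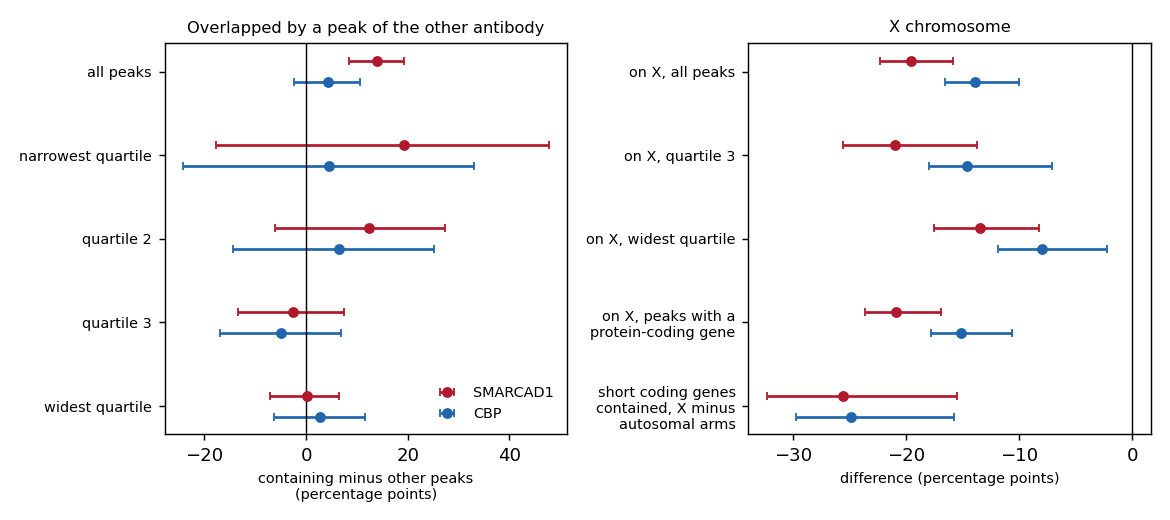
Differences in percentage points with Newcombe 95% intervals (bars), SMARCAD1 in red and CBP in blue. Left, the share overlapped by the other antibody in containing minus other peaks, over all peaks and by width quartile, where the 14.0 points for SMARCAD1 fall to 0.253 in the widest quartile. Right, the share on X in containing minus other peaks, and in the lowest position the contained share of protein-coding genes under 1000 bp on X minus the autosomal arms, all below 0.

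Containing peaks were sparse on the X chromosome for both antibodies. For SMARCAD1 19 of 299 (6.35%) were on X, against 25.9% of the other peaks, a difference of -19.5 points (Newcombe 95% interval -22.3 to -15.8). For CBP it was 13 of 233 (5.58%) against 19.5%, a difference of -13.9 points (-16.6 to -9.97). In the third width quartile the differences were -21.0 points for SMARCAD1 (-25.5 to -13.7) and -14.6 for CBP (-17.9 to -7.10), and in the widest quartile -13.5 (-17.5 to -8.22) and -7.97 (-11.8 to -2.20).

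The same measure was taken with protein-coding genes alone. Peaks with a contained protein-coding gene were on X in 11 of 222 cases for SMARCAD1 and 7 of 161 for CBP. Of protein-coding genes under 1000 bp listed for SMARCAD1, 6 of 69 were contained on X (8.70%) and 133 of 388 on the large autosomal arms (34.3%), a difference of -25.6 points (-32.3 to -15.5). For CBP they were 2 of 59 (3.39%) and 132 of 468 (28.2%), a difference of -24.8 points (-29.7 to -15.8). SMARCAD1 peaks that overlap such genes had a median width of 1474 bp on X (1197 to 1833 bp) and 1994 bp on the autosomal arms (1756 to 2213 bp), and CBP peaks 1172 bp (962 to 1362 bp) and 1348.5 bp (1278 to 1447 bp). The part of width, beyond the quartiles above, and of gene content in the low share on X was not tested.

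Among the 28 contained genes on X, roX2, an RNA of the dosage compensation complex that acts on this chromosome, lay in a SMARCAD1 peak of 2228 bp, and CBP covered its start. A tRNA cluster with 1 tRNA-Arg and 2 tRNA-Ser genes was contained for both, in peaks of 1474 and 976 bp. At RpS5a a SMARCAD1 peak of 2089 bp contained 4 snoRNAs and CBP 2 of them. No containing peak lay on the unplaced sequence Uextra, which held 109 other SMARCAD1 and 77 other CBP peaks. A peak can contain a gene only where one is listed, and the number of genes listed on Uextra is not given here. None of CG31288, CG5381, CG15347 and CG12477, genes that the study examined in S2 cells, was contained. SMARCAD1 covered the end of CG5381 and the start of CG15347.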

How the data were processed

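Per the methods and labels, the authors mapped reads with BWA, called peaks with MACS against a control for each library separately, and annotated them with ChIPpeakAnno. The methods set the peak cutoff as a P value and name no correction for multiple testing. How the number and width of the peaks depend on that cutoff was not tested. The tables that the authors deposited hold peak positions, peak widths and gene positions in bp, from which margins and gaps were computed. A gene was contained where both ends lay within the peak, which held for all 471 entries so labelled for SMARCAD1 and 363 for CBP. Gene types came from RefSeq (Release 6) by name, with 629 of 636 contained names matched, and its coordinates were used only to compare builds. Peaks overlapped at 1 bp or more. Shares have Wilson and differences Newcombe 95% intervals, medians binomial intervals (Python 3.11.15, scipy 1.17.1), tested on simulated data.

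The gene lists and members were chosen with earlier results of these data known. Named genes are those of the 10 peaks per antibody with most genes, the 8 shortest and 8 longest, name families, the 5 nearest either side of the containment limit, and genes the study examined in S2 cells. Others, such as rpr, Thor, pirk and the dro genes, were chosen after values were seen. No sequence table was used here, so the planned promoter motif search was not run and no sequence is printed.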

Additional observations from a re-analysis of the deposited data

How the results depend on the processing

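Of 76 alternatives over 16 values, 58 stayed within the 95% interval of the value given. With only the entry of the nearest TSS, the share of peaks containing a gene was 5.17% for SMARCAD1 and 3.46% for CBP, that of contained genes shared with the other antibody 32.5% and 41.5%, that of genes not coding for a protein 37.6% and 40.3%, that of peaks covering another start 47.6% and 54.6%, and the median gene length for CBP 562.5 bp. With genes of at least 300 bp alone, 7.29% and 4.47% of peaks contained a gene, and of peaks up to 5000 bp wide 7.78% and 5.39% did. When overlap had to reach 50% of both peaks, the shared containing peaks were 47.8% for SMARCAD1 and 46.8% for CBP, and with centres within 200 bp 26.4% and 28.8%. Counting a gene as shared where its start alone was covered raised the SMARCAD1 share to 60.5%. The cause of these changes was not tested. The share of containing peaks on X stayed within its interval under all alternatives run for it, including peaks with a protein-coding gene alone, chosen after seeing the data (4.95% and 4.35%).

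No paired analysis was possible because there was a lone library per antibody. The depth is unknown, so a gene outside the peaks is not shown to lack the protein, and the efficiency of an antibody cannot be told apart from occupancy. tRNA, snRNA and histone genes have near-identical copies.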

Other observations

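The 636 contained names stand at 633 positions, since 3 pairs of names share both ends, among them gdl with gdl-ORF39 and Kaz1-ORFA with Kaz1-ORFB. In addition, 5 RefSeq genes are named by 2 entries each.

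Of 10 listed histone gene names, 3 were contained, beside 10.6% of all listed names and 361 of the 5600 protein-coding names. Besides His4r, these were His2A:CG33835 and His2B:CG33868 of the repeated histone cluster, in CBP peaks of 1412 and 1459 bp and about 90 kb from a SMARCAD1 peak (90597 and 89840 bp). The copies of this cluster are near-identical, so these values are uncertain. None of the 15 listed names that begin with Prosalpha, Prosbeta or Pros and a number, coding for proteasome subunits, was contained. For either antibody 10.6% of all listed names were contained, and 361 of the 5600 protein-coding names. CBP covered the start of 12 and SMARCAD1 that of 5, beside 53.9% and 38.1% of all listed names. The chromatin proteins HmgD and baf were contained for CBP only, in peaks of 6052 and 3333 bp, and baf lay 52113 bp from a SMARCAD1 peak.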
